A study of Pinctada fucata with 15 samples.

Results

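Whole pools of larvae of the pearl oyster Pinctada fucata were compared at the 2 ends of swimming larval life, the umbonal stage at 14 days and the trochophore stage at 17 h after insemination. The members were chosen by the stage in the labels: 3 umbonal and 3 trochophore pools, which make 6 of the 15 arrays of the series, each pool with its own one-colour (Cy3) Agilent array. The other 9 arrays held fertilized eggs, D-shaped larvae of 48 h and juveniles, and they entered the fit so that the spread between pools was shared over 5 stages. All eggs were fertilized in seawater with ammonia, and the larvae were reared with no experimental treatment, in a small aquarium at first and in a larger tank later, on golden algae and then on green algae. A pool was taken once most of its larvae had reached the stage, so that a pool may also hold larvae of a neighbouring stage. The labels do not say whether the 3 pools of a stage came from separate spawnings, so the p-values measure only the spread between these pools, which may be technical. The probes were designed mainly from transcripts of the adult mantle, the tissue that secretes the shell.

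The trochophore is the first free-swimming larva of bivalves. It moves by bands of cilia, lives on yolk and has a shell-forming field of cells but no closed shell. The umbonal larva swims and feeds with a ciliated velum, digests algae in a gut, pulls the velum in with larval muscles and carries a hinged shell that grows at the mantle edge. Bivalve shell is calcium carbonate laid down in a matrix of chitin and secreted proteins, and in adult pearl oysters it has an outer prismatic and an inner nacreous layer.

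Every level in what follows is a log2 signal after quantile normalization of 58883 probes over the 15 arrays, and it can be compared between arrays for a probe but not between probes. The share of probe spots well above the local background was 61.8% to 70.3% on the trochophore arrays and 80.9% to 91.3% on the umbonal arrays. No probe spot was saturated. The trochophore arrays lay on slide 1 and the umbonal arrays on slide 2, so the slide and the stage cannot be told apart. The D-shaped stage alone lay on both slides, and its share of spots well above background was 86.1% for the pool on slide 2 against 74.6% and 70.4% for those on slide 1. Between pools of the same stage the median SD of a probe was 0.19 in trochophore and 0.171 in umbonal larvae, over probes well above background on all 6 arrays.

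About as many probes were higher as were lower in umbonal larvae. A probe was tested only with a signal well above background in all 3 pools of 1 stage or of the other, and it was called changed at an adjusted p below 0.05 and a difference of at least 2-fold. Of 47853 probes tested, 23147 (48.4%) were called, 11296 higher (23.6%) and 11851 lower (24.8%), and the median change over all tested probes was -0.12 on the log2 scale. These directions are relative to the bulk of the probes. When the arrays were scaled by 8 spike-in control probes instead, the median moved to 0.89, 22190 probes were called higher and 3852 lower, and the share of calls that were higher went from 48.8% to 85.2%. No probe called under both scalings changed direction. A reversal could hardly occur, since a call needs at least 2-fold either way and the median moved only from -0.12 to 0.89.

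Rises and falls differed in the probes that carried them. Of the 34886 probes well above background on all 6 arrays, 4889 were called higher and 10548 lower, with a median fold of 3.55 and 3.14. Changes of at least 16-fold were nevertheless more often rises, 461 against 206, and changes of at least 64-fold numbered 75 rises and 20 falls. With spike-in scaling the same probes gave 12021 higher and 3265 lower calls. A further 6811 probes (11.6% of all) were well above background on all 3 umbonal arrays and on no trochophore array, and only 74 (0.126%) were so the other way round. Of those 6811 probes 4781 were called higher and 18 lower, and the 18 are given no fold because the stage that read brighter had no array well above background. Their detection also moved with the slide: 84.1% of them were well above background on the D-shaped array of slide 2, but 49.4% and 39% on the D-shaped arrays of slide 1, where the values over all probes were 86.0%, 74.5% and 70.2%. Where no array of a stage was well above background, a fold below is therefore a lower bound, written as “at least”. For such a bound each dim array is given the probe's signal or the dimmest signal that counted as well above background there, whichever is larger, and the bright stage's mean is set against the mean of these. Where 1 or 2 arrays of a stage were well above background, their number stands beside the fold, which then rests partly on dim signals.

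**Figure D1:**
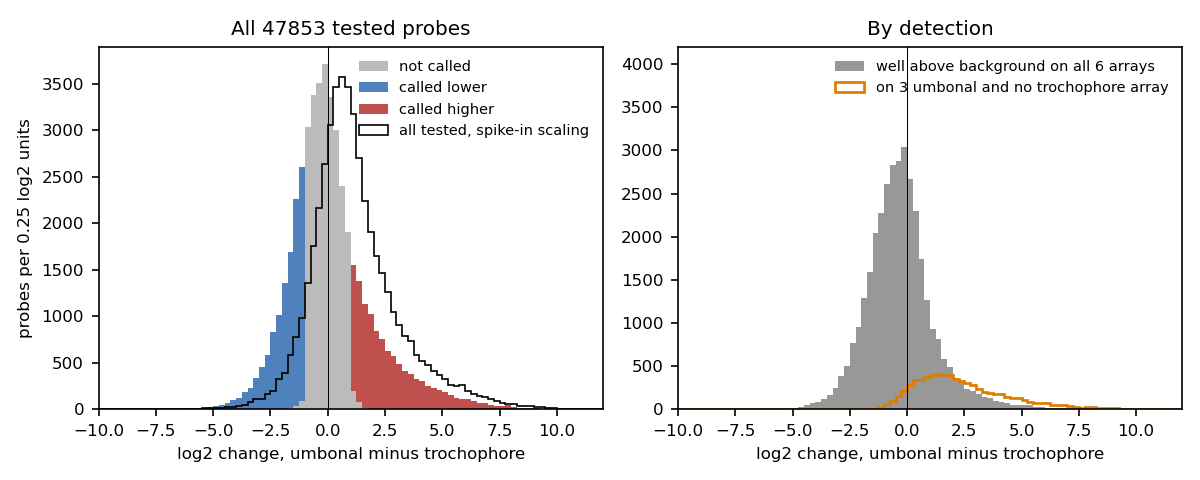
Number of probes (y axis) by log2 change from trochophore to umbonal larvae (x axis, bins of 0.25). Left, all 47853 tested probes, with 11296 called higher in red, 11851 called lower in blue and the others in grey, and the outline after spike-in scaling, whose median lies at 0.89 instead of -0.12; right, the probes well above background on all 6 arrays in grey and those on all 3 umbonal and no trochophore array as an orange outline.

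All 4 probes that the study names for chitin synthase, the enzyme that builds the chitin of the shell framework, were higher in umbonal larvae. The study reported their rises from trochophore to D-shaped larvae on these same trochophore arrays, so the rises here are not independent evidence. It also measured chitin synthase by quantitative PCR (RT-qPCR) in the same samples and described a similar pattern. Over all tested probes 23.6% were called higher. Probe CUST_24765 read 7.56, 7.17 and 6.44 in the trochophore pools and 13.12, 12.97 and 12.77 in the umbonal pools, a rise of 5.9 ± 0.25 on the log2 scale (SE; 59.8-fold, limma adjusted p = 3.7e-10). Probe CUST_58227 went from 8.92, 8.07 and 8.16 to 13.92, 13.92 and 13.9 (46.4-fold, adjusted p = 2.6e-09). In both probes the lowest umbonal pool lay more than 4 log2 units above the highest trochophore pool. Probe CUST_56685 read 6.62, 6.02 and 6.38 in trochophore and 10.5, 10.69 and 10.77 in umbonal pools (19.9-fold, adjusted p = 8.4e-10, with 2 of the 3 trochophore arrays well above background). The fourth probe, CUST_39082, did not clear the background in any trochophore pool, read 9.62, 9.17 and 9.72 in the umbonal pools and was at least 8.9-fold higher (adjusted p = 8.7e-09). The D-shaped pools had already reached these levels: their mean was 13.1 for CUST_24765 and 14.62 for CUST_58227, against 12.96 and 13.92 in umbonal larvae. The files do not say whether the 4 probes belong to 1 gene or to several.

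Among 30 probes that the study lists for biomineralization, 18 were tested, 6 were higher and 3 lower, with a median change of -0.2 beside -0.12 over all tested probes. The share called, 50%, was close to the 48.4% of all tested probes, and 23.6% of those were higher and 24.8% lower. The study had followed this list on these same arrays, so its counts are not independent evidence. The rises included 4 of the PFMG genes, a set first cloned from the pearl oyster mantle. PFMG8 was the largest of them, from 6.93, 7.28 and 6.94 in trochophore to 11.69, 11.73 and 11.72 in umbonal pools, a change of 4.67 ± 0.28 (SE; 25.4-fold, adjusted p = 7.9e-09). PFMG6 read 6.87, 6.12 and 6.48 and then 9.72, 9.6 and 9.67, though only 1 trochophore array was well above background (9.03-fold, adjusted p = 1.6e-06). PFMG2 was bright at both stages, at 11.62, 11.74 and 11.8 in trochophore and 14.61, 14.36 and 14.94 in umbonal pools (7.56-fold, adjusted p = 1.2e-09). The D-shaped pools separated these 3 genes: the PFMG2 mean was 14.19 there, close to the umbonal level. That of PFMG8 was 7.88 and that of PFMG6 7.18, nearer the trochophore than the umbonal level. The study reported both PFMG8 and PFMG6 as already up-regulated at the D-shaped stage. The D-shaped pools of PFMG8 were spread, at 7.16, 7.79 and 8.7, the last being the pool on slide 2. A ferritin-like protein, a probable iron store, went from 13.36, 14.25 and 14.18 to 15.03, 14.9 and 15.12 (2.12-fold, adjusted p = 0.002), but with the slide as a block its change was 0.37 and was not called, and without the lowest trochophore pool it fell short of 2-fold as well (0.8). PFMG4 was called higher from 3.95, 4.68 and 4.84 to 5.77, 6.61 and 6.15, with no trochophore array well above background and no fold given because the bound is under 1. Leaving out trochophore pool 1 or 2 or umbonal pool 2 or 3 ended that call.

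The 3 falls of the list were those of PFMG3, Tyrosinase and Shematrin-7. PFMG3 read 6.82, 7.04 and 7.21 in trochophore and 4.13, 4.57 and 3.33 in umbonal pools, 1 of which was not well above background (8.06-fold lower, adjusted p = 4e-07). Tyrosinase, a copper enzyme that oxidizes tyrosine to quinones and is used in shell colour and in hardening of the periostracum, went from 7.57, 6.97 and 7.74 to 4.66, 5.14 and 4.46 (6.36-fold lower, adjusted p = 0.00055, with 2 of the 3 umbonal arrays well above background). Shematrin-7, of a family of glycine-rich shell proteins, went from 10.8, 10.19 and 10.8 to 8.44, 8.63 and 8.4 (4.31-fold lower, adjusted p = 6.4e-06). The probe annotated from KRMP-7 of Pinctada margaritifera, of the lysine-rich matrix proteins of the prismatic layer, behaved likewise: 7.82, 7.46 and 7.88 in trochophore and 5.46, 5.36 and 4.89 in umbonal pools (5.58-fold lower, adjusted p = 4.2e-06, with 2 of the 3 umbonal arrays well above background). The higher level of these 4 probes in trochophore larvae follows from their being called lower.

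Several probes of adult shell proteins were not called. Nacrein, a nacre protein with a carbonic anhydrase domain, read 7.6, 7.34 and 6.66 in trochophore and 6.42, 6.78 and 6.44 in umbonal pools (-0.65 ± 0.31, adjusted p = 0.077), and its groups overlapped. N151 was among the bright probes at both stages, with 15.18, 14.71 and 15.17 and 14.7, 14.79 and 14.84, and its change of -0.25 ± 0.21 did not pass (adjusted p = 0.31). Prisilkin-39, a chitin-binding protein of the prismatic layer, read 9.19, 8.74 and 8.78 and 8.8, 9.0 and 8.45 (change -0.15 ± 0.34, adjusted p = 0.71). All 3 changes were above 0 with spike-in scaling (Nacrein 0.61, N151 0.25, Prisilkin-39 0.98) and with the slide as a block, called in neither. With spike-in scaling the median of the list was 0.95, beside 0.89 over all tested probes, and its calls were 8 higher and 3 lower. Another 6 probes of the list were well above background on none of the 6 arrays, among them Pif, an aragonite-binding protein of nacre, KRMP 1, Shematrin-5 and PFMG11. Pif read 3.37, 2.98 and 2.95 in trochophore and 2.95, 2.94 and 2.91 in umbonal pools, which is at the floor of the arrays. Pearlin, Shematrin-4 and both tyrosinase-like proteins were well above background on at most 2 arrays of each stage and were not tested.

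**Figure D2:**
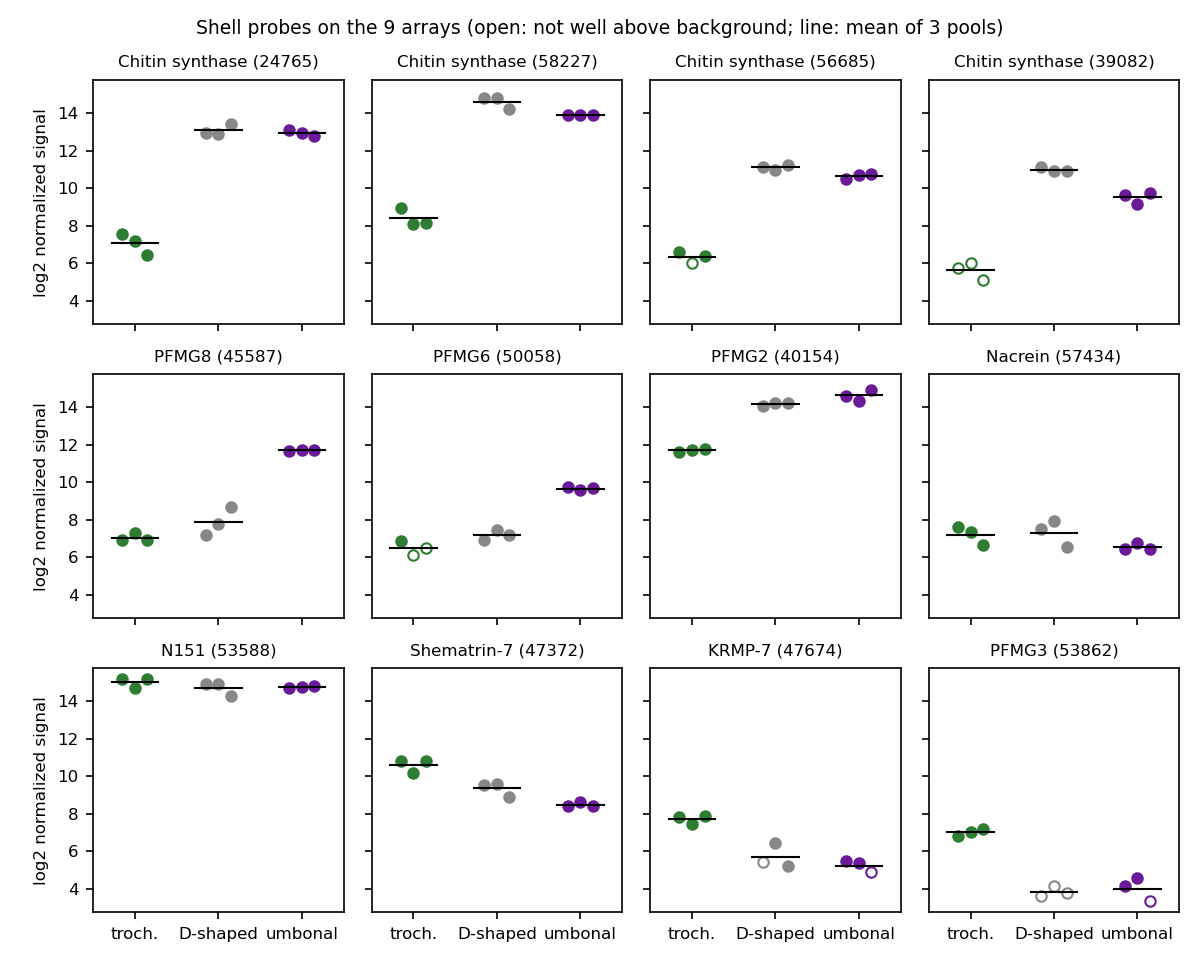
Log2 normalized signal (y axis) of 12 shell probes, with probe numbers in brackets, on the 3 trochophore, 3 D-shaped and 3 umbonal arrays (x axis); filled points were well above background, open points were not, and lines are the means of 3 pools. The chitin synthase probes and PFMG2 are high from the D-shaped stage on, and PFMG8 and PFMG6 rise mainly between the D-shaped and umbonal stages. Nacrein and N151 stay within their spread, and the last 3 probes are highest in trochophore larvae.

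A second list of the study holds 26 probes annotated to tyrosine metabolism, the pathway that feeds melanin and quinone formation. It was picked because its members changed between consecutive stages of these arrays, so the counts describe it and support nothing. Of 23 tested probes 16 were higher and 4 lower in umbonal larvae, with a median change of 2.76 (2.66 with dim probes at their bound), beside 23.6% higher and 24.8% lower over all tested probes. Many members are glutathione S-transferases, which join glutathione to reactive compounds, rather than enzymes of tyrosine itself, and 9 of the 10 named as transferases were higher. The sigma class transferase had the smallest standard error, 9.64, 9.56 and 9.58 in trochophore and 13.91, 13.8 and 13.98 in umbonal pools (change 4.3 ± 0.11, SE; 19.7-fold, adjusted p = 8.2e-12). The probe named from CBR-GST-11 of the nematode Caenorhabditis briggsae went from 8.46, 8.94 and 8.48 to 13.65, 13.51 and 13.72 (32-fold, adjusted p = 6.5e-10). A mu class transferase did not clear the background in any trochophore pool and was at least 7.35-fold higher (adjusted p = 2.3e-10). The exception, CUST_39791, read 7.08, 7.93 and 7.93 and 7.56, 7.4 and 7.89 with an adjusted p of 0.93, while its D-shaped mean was only 4.15.

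Aspartate aminotransferase, which moves amino groups between amino acids and their keto acids, rose most in the list, from 6.5, 6.31 and 6.09 to 11.72, 11.1 and 12.02 (39.8-fold, adjusted p = 2.6e-10, with 2 of the 3 trochophore arrays well above background). A gastric triacylglycerol lipase, an enzyme of fat digestion, read 8.76, 8.55 and 8.42 in trochophore, a mean of 9.84 in D-shaped and 13.43, 13.29 and 13.65 in umbonal pools (29.5-fold, adjusted p = 5.9e-10). An astacin-like protease was at least 7.38-fold higher (adjusted p = 3.6e-09). Neither the lipase nor the protease is an enzyme of tyrosine metabolism. The copper amine oxidases went both ways: the probe named semicarbazide-sensitive amine oxidase fell from 9.86, 9.82 and 10.18 to 6.51, 5.6 and 6.15 (14.6-fold lower, adjusted p = 1.1e-06), while CUST_44222, named amiloride binding protein 1, was at least 10.1-fold higher (adjusted p = 2.4e-10). The other probe of that name, CUST_18929, read 10.68, 10.48 and 10.54 and 9.23, 9.11 and 8.97 (2.76-fold lower, adjusted p = 0.0023), a fall that was not called after spike-in scaling or with the slide as a block. Temptin, known as a pheromone of sea hares, was as divided over its 3 probes, with 2.57 for CUST_22403, 0.75 for CUST_12898 (below the 2-fold limit) and -2.21 for CUST_29733. The 3 peroxidase probes of the list were not tested, but 2 of them were bright in D-shaped pools, and ovoperoxidase, which in sea urchins hardens the fertilization envelope, read 7.23, 7.22 and 6.58 in trochophore, 12.23, 11.95 and 12.69 in D-shaped and 4.54, 4.18 and 4.92 in umbonal pools, only 1 of which was well above background.

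**Figure D3:**
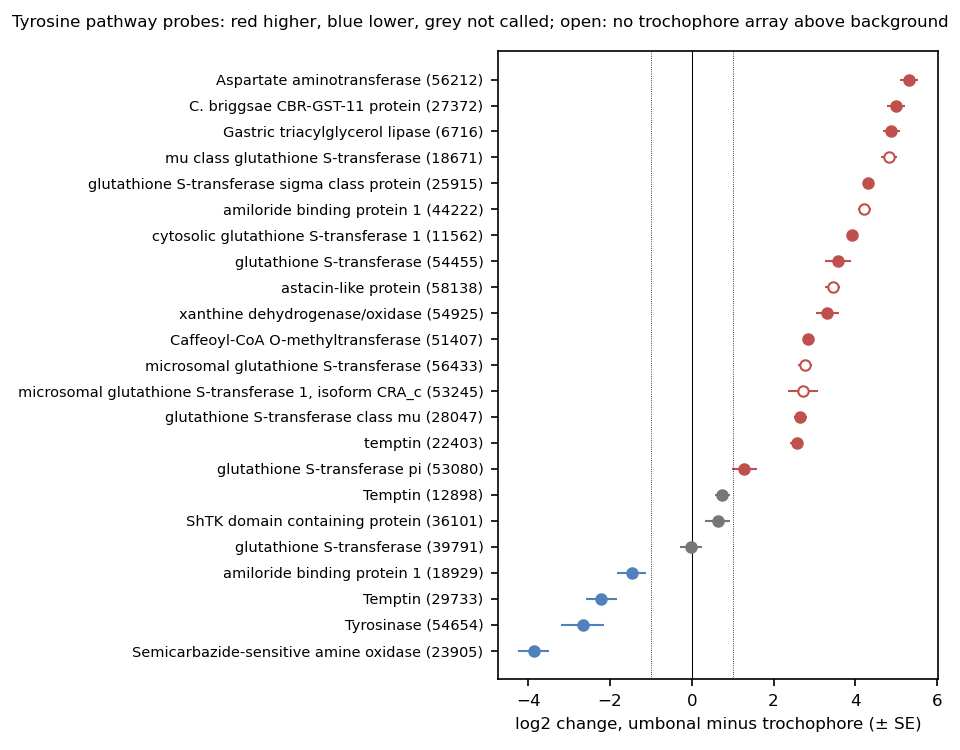
Log2 change from trochophore to umbonal larvae (x axis, ± SE) of the 23 tested probes of the tyrosine pathway list (y axis, probe numbers in brackets); red was called higher, blue called lower and grey not called, dotted lines mark 2-fold, and open symbols had no trochophore array well above background. The 16 probes called higher lie between 1.28 and 5.31, and the 4 called lower between -1.47 and -3.86.

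Further probes carry no gene name but are listed by the study under a pathway or cell component. Each such list is partial unless said otherwise, and probes can be in several lists. The listed probes had changed between consecutive stages of these same arrays. That choice can shape both the share called, 48.4% over all tested probes, and the direction of the calls. The balance of directions is described beside 23.6% higher and 24.8% lower over all tested probes. Probes well above background on all 3 umbonal and no trochophore array were tested only through the umbonal stage and could hardly be called lower. Over all probes this class gave 4781 higher and 18 lower calls. A lean to higher calls is therefore partly built in where a list holds many of them.

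Most lists for digestion and for the handling of food and foreign compounds had more higher than lower probes in the umbonal larva. For Drug metabolism - cytochrome P450, 22 of 28 tested probes were higher and 1 lower, with a median change of 2.33 (2.17 with dim probes at their bound). Of the 28, 11 were well above background on all 3 umbonal and no trochophore array. Its largest rise, CUST_17526, did not clear the background in any trochophore pool, read 13.23, 13.02 and 13.56 in umbonal pools and was at least 121-fold higher (adjusted p = 1.6e-12). Glycosaminoglycan degradation, the breakdown of sulphated sugar chains in lysosomes, had 21 higher and 1 lower of 34 (median 1.92, or 1.31 with bounds), and 12 of the 34 were of that kind. Its probe CUST_23411 went from 7.77, 8.54 and 7.94 in trochophore to 14.57, 14.25 and 14.58 in umbonal pools (83.5-fold, adjusted p = 2.4e-11), with D-shaped pools at 8.29, 8.3 and 8.37, inside the trochophore range. The other 2 of its largest rises were CUST_28022 at 79-fold, with 1 of the 3 trochophore arrays well above background, and CUST_17686 at 77-fold. Glutathione metabolism was less one-sided, with 13 higher and 7 lower of 30 and a median of 0.49, or 0.15 with the slide as a block. Other glycan degradation had 18 higher and 1 lower of 32, and Starch and sucrose metabolism 18 and 4 of 35. In each, 9 probes were well above background on all 3 umbonal and no trochophore array. Within Starch and sucrose metabolism, CUST_43382 was at least 34.5-fold higher (adjusted p = 5.3e-12). Amino sugar and nucleotide sugar metabolism, which holds chitin synthase, had 19 higher and 4 lower of 35, led by CUST_3045 at 11.25, 11.36 and 11.25 in D-shaped and 14.27, 13.99 and 14.03 in umbonal pools and at least 208-fold above trochophore (adjusted p = 8.5e-10).

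Lists of fat and vitamin metabolism had the same balance. Retinol metabolism had 21 higher and 3 lower of 29 (median 2.41, with bounds 1.86). Linoleic acid metabolism had 18 and 3 of 31. All 3 umbonal and no trochophore array were well above background for 9 probes of the retinol and 12 of the linoleic acid list. CUST_243, in both lists and in that for cytochrome P450, read 11.87, 11.86 and 11.75 in the umbonal pools and was at least 44.5-fold higher (adjusted p = 5.8e-11). Within the same lists CUST_3084 went the other way, from 13.6, 13.62 and 13.64 to 11.0, 11.0 and 11.07 (6.06-fold lower, adjusted p = 5.4e-10). The lysosome list itself was divided, with 5 higher and 6 lower of 19 and a median of -0.27. With spike-in scaling this median was 0.78, beside 0.89 over all tested probes. Its largest rise, CUST_1216, went from 7.06, 6.74 and 7.01 in trochophore to 12.06, 11.88 and 12.07 in umbonal pools (33.5-fold, adjusted p = 4.8e-08, with 2 of the 3 trochophore arrays well above background), and its largest fall, CUST_23198, from 12.68, 12.32 and 12.43 to 10.14, 9.54 and 10.5 (5.34-fold, adjusted p = 3.1e-07).

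In 2 lists of energy metabolism about as many probes were higher as were not called. Oxidative phosphorylation, the mitochondrial respiratory chain and ATP synthase, had 12 higher and 2 lower of 27 tested probes, and its changes ran from -1.94 to 2.35 with a median of 0.89. The citrate cycle had 13 and 3 of 32 (median 0.97), and its largest rise, CUST_37596, went from 7.64, 8.1 and 7.17 to 12.46, 12.27 and 12.59 (27.8-fold, adjusted p = 1e-09). Proteasome probes, subunits of the complex that degrades tagged proteins, were nearly all called: 20 higher and 6 lower of 29, with a median of 1.64. CUST_32677 was its largest rise, with 8.87, 9.06 and 8.94 in trochophore, 9.68, 9.88 and 9.33 in D-shaped and 11.69, 11.41 and 11.94 in umbonal pools (6.6-fold, adjusted p = 1e-08). Under each of the 75th-percentile shift, spike-in scaling and the slide as a block, the medians of these 3 lists stayed above 0.

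Muscle and nerve lists were divided: some had mostly higher probes, and others few calls or as many lower ones. Contractile fiber, the myofibril of muscle, had 12 higher and 4 lower of 18 (median 2.37, with bounds 1.23). Its largest rise, CUST_23416, did not clear the background in any trochophore pool, read 8.1, 7.65 and 7.81 in D-shaped and 12.62, 12.96 and 11.82 in umbonal pools and was at least 69.4-fold higher (adjusted p = 2.7e-08). CUST_40413, listed for both contractile fiber and the myosin complex, went from 7.02, 7.49 and 6.91 to 14.32, 13.3 and 13.98 (106-fold, adjusted p = 2.5e-10), with D-shaped pools already at 13.79, 13.84 and 13.54. It was the single rise of the myosin complex list, where 4 of 8 probes were lower, led by CUST_46602 from 8.26, 7.78 and 7.78 to 4.02, 4.43 and 3.88 (14.2-fold lower, adjusted p = 1e-08, with 1 of the 3 umbonal arrays well above background). Myosins also work outside muscle, and the list does not say which are which. The median of the myosin list was -0.93, but 0.09 with spike-in scaling, when 2 were higher and 2 lower. Sarcolemma and sarcoplasmic reticulum, the membranes of muscle cells, had few calls, 2 higher and 1 lower of 7 and 1 and 0 of 6, with medians of 0.1 and 0.24. With spike-in scaling the calls were 4 higher and 0 lower and 6 and 0, with medians of 1.35 and 1.36 beside 0.89 over all tested probes.

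Neuroactive ligand-receptor interaction, a list of receptors for transmitters and peptide hormones, had 24 higher and 9 lower of 42. For 19 of its probes only umbonal arrays were well above background, so its median of 1.88 fell to 0.07 with bounds. Its largest rise, CUST_24364, read 7.0, 7.27 and 6.76 in D-shaped and 12.69, 12.39 and 12.47 in umbonal pools and was at least 71.9-fold above trochophore (adjusted p = 3.7e-10). For the postsynaptic membrane 6 of 10 were higher and 1 lower, with a median of 1.39 that was 0.38 with bounds. The lower one, CUST_23837, went from 10.24, 10.27 and 10.39 to 7.23, 7.29 and 7.67 (7.5-fold lower, adjusted p = 2.5e-07), whereas CUST_10046 read 3.01, 2.96 and 2.97 in trochophore, at the floor, 11.75, 11.74 and 11.6 in D-shaped and 10.98, 10.26 and 11.33 in umbonal pools (at least 22.8-fold, adjusted p = 1.1e-10). The synaptic vesicle list had 3 higher and 2 lower of 8 (median -0.08), and the ion channel complex 5 and 3 of 9 (median 1.25, with bounds 0.0). Calcium signaling had 14 higher and 3 lower of 26. Its largest fall carries a name, calmodulin as in the mussel Hyriopsis cumingii, a calcium sensor that went from 7.64, 8.68 and 8.62 to below the background and was at least 15.4-fold lower (adjusted p = 1.8e-08).

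Both larvae swim by cilia. Of the tested probes 14.3% of motile cilium and 46.2% of the axonemal dynein complex were called, beside 48.4% over all tested probes. The shares were 31.6% for the axoneme, 23.3% for the cilium and 60% for the kinesin complex. With spike-in scaling 22190 of all tested probes were higher and 3852 lower, with a median of 0.89. Motile cilium, a complete list, had 1 lower probe of 7 and changes between -1.26 and 0.72, with a median of -0.01 (1.02 with spike-in scaling, when 4 were higher). The single fall, CUST_17442, went from 9.26, 10.09 and 9.84 to 8.68, 8.37 and 8.36 (2.39-fold lower, adjusted p = 0.00082). The axonemal dynein complex, the motor that bends the cilium, had 6 higher and 0 lower of 13 with a largest change of 2.07, and 3 were higher with the slide as a block, 8 with the 75th-percentile shift and 13 with spike-in scaling, when the median went from 1.06 to 2.29. Each of its 3 largest rises was well above background on at most 1 trochophore array. CUST_23995, the first of them, read 6.38, 6.21 and 6.75 in trochophore and 8.4, 8.94 and 8.2 in umbonal pools (4.19-fold, adjusted p = 7.6e-05), and with the slide as a block it was not called (0.75). The axoneme, the core of the cilium, had 6 higher and 0 lower of 19, and 17 higher with spike-in scaling, and the whole cilium 5 and 2 of 30, with 20 higher with spike-in scaling. The kinesin complex, motors that also carry cargo along microtubules outside cilia, is a complete list of 5 probes with 1 higher and 2 lower.

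Lists of dividing cells and of RNA processing leaned the other way. The MCM complex, the helicase that opens DNA for replication, is a complete list of 8 probes, of which 5 were lower and none higher, with changes from -3.19 to -0.39. Its largest fall, CUST_1310, went from 10.39, 10.5 and 10.63 in trochophore to 7.55, 6.58 and 7.83 in umbonal pools (9.11-fold lower, adjusted p = 2.3e-07). Another, CUST_38785, went from 9.8, 9.65 and 9.88 to 7.59, 6.75 and 7.81 (5.25-fold lower, adjusted p = 6e-07). With spike-in scaling 2 of the 8 were still called lower, and the median went from -1.41 to -0.27, beside 0.89 over all tested probes. Cell cycle had 17 lower and 2 higher of 25 (median -1.65, and -0.5 with spike-in scaling), and DNA replication 11 lower and 2 higher of 25 (median -0.83, which turned to 0.15 with spike-in scaling). Spindle probes were 5 lower and 2 higher of 11, and kinetochore probes 2 and 0 of 4. CUST_16708 of the cell cycle list was bright at both stages, 15.37, 15.44 and 15.29 in trochophore and 12.79, 12.25 and 12.84 in umbonal pools (6.68-fold lower, adjusted p = 1e-08). Against the trend, CUST_31739 of the DNA replication list rose from 6.21, 6.58 and 6.46 to 10.33, 10.35 and 9.86 (13.6-fold, adjusted p = 8.7e-06, with 1 of the 3 trochophore arrays well above background), with D-shaped pools at 11.47, 11.28 and 11.03.

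The spliceosome, which removes introns, had 21 lower and 2 higher of 29 tested probes (median -1.45, and -0.55 with spike-in scaling). CUST_24540, its largest fall, read 13.24, 13.28 and 13.02 in trochophore, 11.28, 11.42 and 10.8 in D-shaped and 10.39, 10.31 and 10.25 in umbonal pools (7.27-fold lower, adjusted p = 3.9e-08). The nucleolus, where ribosomes are assembled, had 18 lower and 4 higher of 34, but 8 lower and 10 higher with spike-in scaling. Its median was then -0.05, beside 0.89 over all tested probes. Ribosome probes did not follow it: 5 were higher and 3 lower of 14, and with the 75th-percentile shift 2 and 3. The largest fall in that list was extreme, CUST_15326 from 13.85, 13.51 and 13.68 in trochophore to 5.89, 6.23 and 5.49 in umbonal pools (225-fold lower, adjusted p = 2e-10). The same probe is also listed for glycine, serine and threonine metabolism.

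Lists of cell junctions leaned to the trochophore larva too. In the apical junction complex, a complete list of 6 probes for the contacts that seal epithelia, 5 were lower and none higher, and all 5 calls remained with spike-in scaling, when the sixth probe was higher. CUST_38901 fell from 11.39, 11.76 and 11.89 to 7.29, 7.34 and 7.17 (21.3-fold lower, adjusted p = 5.5e-08). The wider list of cell-cell junctions had 10 lower and 2 higher of 16, led by CUST_50293 from 10.76, 10.39 and 10.62 in trochophore over 6.54, 6.22 and 6.41 in D-shaped to 4.52, 4.4 and 4.2 in umbonal pools (74.2-fold lower, adjusted p = 4.2e-12, with 2 of the 3 umbonal arrays well above background). Transcription factor complex had 12 lower and 2 higher of 21, and CUST_1531 in it went from 11.77, 11.43 and 11.61 to 7.35, 7.29 and 7.55 (18.5-fold lower, adjusted p = 5.2e-10). Neither of its 2 rises was called with the slide as a block.

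**Figure D4:**
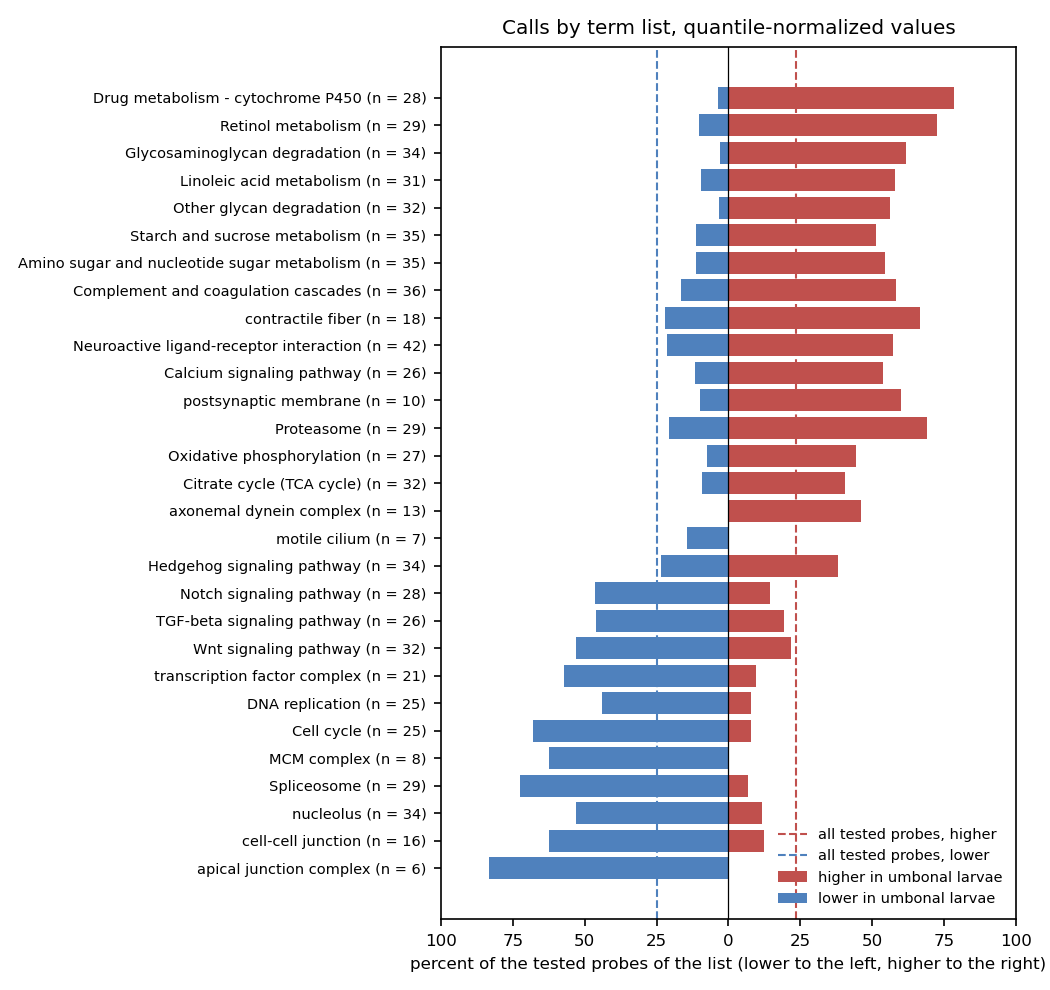
Percent of the tested probes of 29 of the term lists (rows, with the number tested) that were called higher in umbonal larvae (red, to the right) or lower (blue, to the left) on quantile-normalized values; dashed lines are the shares over all 47853 tested probes, 23.6% and 24.8%. The metabolic, contractile fiber and receptor lists in the upper rows extend mainly to the right, and the division, splicing and junction lists in the lower rows mainly to the left.

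Developmental signalling lists held members that went far in either direction. Wnt signalling, which sets cell fate and axes, had 17 lower and 7 higher of 32, Notch signalling, which acts between neighbouring cells, 13 and 4 of 28, and TGF-beta signalling 12 and 5 of 26. With spike-in scaling the calls were 5 lower and 9 higher for Wnt, 3 and 11 for Notch and 4 and 10 for TGF-beta. Over all tested probes that scaling gave 3852 lower and 22190 higher. The medians were then -0.39, 0.33 and 0.28, below the 0.89 of all tested probes. Hedgehog signalling had 13 higher and 8 lower of 34. In the Wnt list CUST_17538 was bright enough only in trochophore pools, at 7.27, 7.22 and 7.09, and was at least 7.08-fold lower later (adjusted p = 1e-07). CUST_25651 of the same list rose from 5.78, 6.29 and 6.36 to 11.42, 11.84 and 11.2 (40.6-fold, adjusted p = 8.2e-11, with 1 of the 3 trochophore arrays well above background) without a rise in the D-shaped pools, which read 5.64, 5.52 and 5.25. In the TGF-beta list CUST_14598 fell from 8.28, 8.47 and 8.27 to 3.99, 3.67 and 3.66 (23.7-fold lower, adjusted p = 4e-09, with 1 of the 3 umbonal arrays well above background), and CUST_32340 rose from 7.74, 7.56 and 7.45 to 12.17, 12.54 and 11.55 (22.6-fold, adjusted p = 6.5e-09).

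Smad proteins carry TGF-beta and BMP signals to the nucleus. Pf-smad4, the partner shared by both branches, was high in trochophore pools at 9.13, 8.77 and 9.1 and fell to 5.45, 4.83 and 5.73 in umbonal pools (-3.66 ± 0.3, SE; 12.7-fold lower, adjusted p = 1.7e-07). The D-shaped pools lay between, at 7.41, 7.88 and 6.86. Pf-smad5, a carrier of BMP signals, went from 8.2, 8.52 and 8.47 to 7.07, 6.68 and 7.22 (2.65-fold lower, adjusted p = 7.9e-05), a fall that was not called after spike-in scaling, where its change was -0.22. Pf-smad3 was well above background on at most 2 arrays of a stage and was not tested.

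Among 5 unnamed genes that the study had picked as shell-formation candidates on these arrays, unigene56675 read 9.76, 9.24 and 9.25 in trochophore and 6.2, 6.33 and 6.01 in umbonal pools (9.43-fold lower, adjusted p = 2.5e-07). Its neighbour in the list, unigene18749, went from 7.21, 7.41 and 6.77 to 4.8, 4.81 and 4.75 (5.06-fold lower, adjusted p = 5e-08, with 2 of the 3 umbonal arrays well above background). In contrast, unigene51738 did not clear the background in any trochophore pool, read 7.92, 7.93 and 7.76 in umbonal pools and was at least 2.87-fold higher (adjusted p = 2e-05). The other 2 candidates, unigene34354 and unigene35118, were not bright enough to be tested.

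The largest changes were carried by probes without a gene name. Of those well above background on all 6 arrays, CUST_23716 fell most, from 14.31, 14.16 and 14.39 in trochophore over 10.46, 10.21 and 10.25 in D-shaped to 5.44, 4.93 and 5.26 in umbonal pools (540-fold lower, adjusted p = 1.6e-12). The 10 largest falls lay between -6.51 and -9.08 on the log2 scale, and each of these probes read above 12 in every trochophore pool. CUST_45175 rose most, from 8.27, 7.12 and 6.21 over 14.83, 14.61 and 14.68 to 15.49, 15.3 and 15.54 (304-fold, adjusted p = 1.1e-06), and the 10 largest rises lay between 7.61 and 8.25. Timing differed within them. CUST_44873 read 7.93, 8.02 and 7.28 in D-shaped pools, close to its trochophore values of 7.85, 7.32 and 7.22, and 15.27, 15.22 and 15.26 in umbonal pools, whereas CUST_57687 was at 13.87, 13.78 and 13.95 in D-shaped pools and 14.35, 14.14 and 14.55 in umbonal pools after 6.7, 7.15 and 6.35 in trochophore pools.

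Other probes passed from background to bright. CUST_26508 read 5.34, 3.0 and 2.95 in trochophore pools, well above background in none, and 15.21, 15.25 and 15.21 in umbonal pools, a rise of at least 470-fold (adjusted p = 3e-10). CUST_42135, CUST_39995 and CUST_57843 followed with at least 419-fold, 365-fold and 353-fold, and a probe designed from a GenBank sequence, CUST_78_PI429683413, with at least 330-fold. All but CUST_39995 were also dim in the D-shaped pools, where at most 2 arrays were well above background. In the opposite direction CUST_29919, whose closest database match is a polyubiquitin of the rumen ciliate Dasytricha ruminantium, went from 13.09, 12.97 and 13.03 over 9.42, 9.46 and 9.2 to 3.39, 2.96 and 2.95, at least 405-fold lower (adjusted p = 1.9e-11). CUST_28763 was as bright in D-shaped pools, 13.47, 13.72 and 13.04, as in trochophore pools, 12.81, 12.28 and 12.5, and was well above background on no umbonal array (at least 286-fold lower, adjusted p = 2.3e-12).

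Probes named through a list that the study drew up for strong rises in juveniles were mostly dim at both larval stages: of 281, 98 were well above background on none of the 6 arrays and 112 were tested, with 21 higher and 34 lower. The share called, 49.1%, was close to the 48.4% of all probes. With the 75th-percentile shift 34 were higher and 30 lower, and with spike-in scaling 52 and 14. Over all tested probes these settings gave 12527 higher and 11278 lower, and 22190 and 3852. The list was chosen partly on the same umbonal arrays, so its counts are not independent of them. A second tyrosinase probe in it, CUST_35887, went from 7.34, 8.1 and 8.08 to 5.25, 5.3 and 4.73 (6.73-fold lower, adjusted p = 7.9e-05, with 2 of the 3 umbonal arrays well above background). A matrilin-like protein, CUST_44427, went from 7.32, 7.47 and 7.54 to 4.99, 4.86 and 4.78 (5.93-fold lower, adjusted p = 5.8e-05, with 2 of the 3 umbonal arrays well above background), and CUST_37493, similar to a tumor endothelial marker, from 11.5, 11.0 and 11.05 to 8.78, 8.79 and 8.67 (5.41-fold lower, adjusted p = 0.0032), the latter not called with the slide as a block. A collagen-like probe, CUST_35109, read 7.64, 7.67 and 6.93 in umbonal pools and was at least 2.09-fold higher (adjusted p = 1.6e-05). It was well above background in no trochophore pool and in 1 D-shaped pool, that on slide 2. Its change taken without the bound, 4.22, was 1.98 with the slide as a block.

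The 300 probes designed from GenBank sequences of the species formed a set that was not picked by stage. Of 254 tested, 101 were higher and 43 lower, 56.7% called beside 48.4% over all probes, and the median change was 0.55 (0.39 with bounds) beside -0.12. The files give these probes only a sequence identifier, so all but the Smad probes stay without a gene name. CUST_56_PI429683413 rose most among those above background on all 6 arrays, from 7.32, 7.81 and 7.46 in trochophore over 11.36, 11.59 and 12.49 in D-shaped to 15.9, 15.91 and 15.52 in umbonal pools (303-fold, adjusted p = 6.5e-08). CUST_132_PI429683413 fell from 11.52, 12.18 and 11.67 over 6.43, 5.4 and 7.81 to 4.35, 4.48 and 4.05 (180-fold lower, adjusted p = 4.6e-07, with 1 of the 3 umbonal arrays well above background).

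For each tested probe the mean of the D-shaped larvae of 48 h was placed against the trochophore and umbonal means. A wide gap between these means makes a level between them more likely, so the shares do not show how a change was spread in time. Of the probes called lower in umbonal larvae, 9874 of 11851 (83.3%) had a D-shaped mean between both stages, and of those called higher 7153 of 11296 (63.3%), beside 52.3% of all tested probes. The D-shaped mean lay above both the trochophore and the umbonal mean in 2216 (19.6%) of the called rises and 915 (7.72%) of the called falls. Over all tested probes this share was 21.5%, close to that of the rises. The D-shaped mean was nearer the trochophore level in 3555 and nearer the umbonal level in 3598 of the rises that lay between, and in 4638 and 5236 of the falls. With spike-in scaling the shares between were 77.3% of the rises and 75.4% of the falls. No test was made, since the D-shaped level is compared with the same means that define the call. The D-shaped pool on slide 2 differed by at least 2-fold from the mean of those on slide 1 in 6.21% of 40337 probes, while both pools on slide 1 differed that much from each other in 1.44%.

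**Figure D5:**
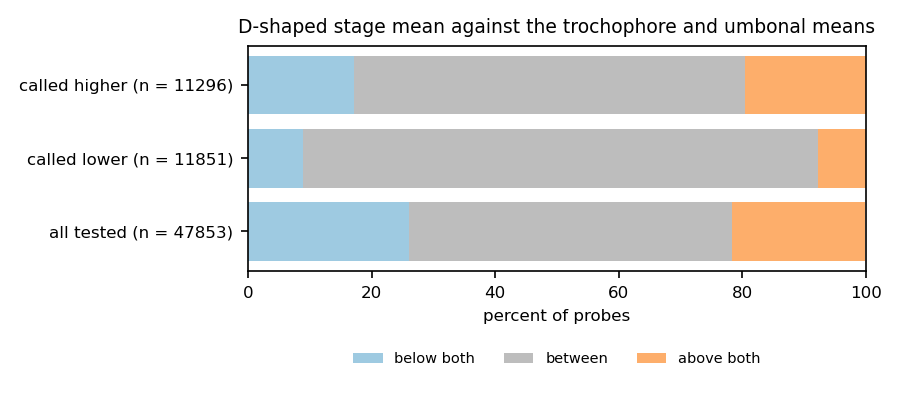
Percent of probes (x axis) whose D-shaped stage mean lay below both, between or above both of the trochophore and umbonal means, for the probes called higher, called lower and all tested (rows). Between are 63.3% of the called rises, 83.3% of the called falls and 52.3% of all tested probes.

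The slide was also entered as a block over all 15 arrays, where only the D-shaped stage informs it. Then 20609 probes were called, 9692 higher and 10917 lower, and 8573 of the rises and 9021 of the falls were among those called without the block, with 1 probe in the opposite direction. Of 285 tested probes chosen by rule, 29 lost their call with this block and no called one changed sign. Chitin synthase, PFMG8, the sigma class transferase, Pf-smad4 and the probes of the largest changes kept theirs, with 5.42 for CUST_24765, 3.45 for PFMG8 and -2.88 for Pf-smad4.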

How the data were processed

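Pools of 15 samples were hybridized to one-colour arrays. Per the file headers, the intensity values (processed Cy3 signals) and the flags of each spot come from the Feature Extraction software of Agilent, which subtracted the background, and no normalization between arrays was applied to them. The log2 values in the table deposited by the authors were made in GeneSpring GX and equal that signal less a constant per array. The methods name quantile normalization. Here outlier and control spots were left out, spots of a probe were averaged, and signals were floored at 1, quantile-normalized and put on the log2 scale. The umbonal stage was set against the trochophore stage with limma 3.58.1 in R 4.3.3, with 1 mean per stage over 15 arrays and Benjamini-Hochberg adjustment over 47853 probes. All adjusted p in the text are limma's. A probe was well above background on an array when most of its spots carried that flag. Names come from the study's tables, since the files hold only identifiers. The members and lists were chosen with earlier results of these data known. Named probes are those the study names, the 10 largest rises and falls above background on all 6 arrays, the 5 largest bounds each way, the leading probes of each list and the largest named changes. Replicate numbers did not pair the arrays. Alternatives were another scaling, the authors' values, normexp background correction (offset 50, on the median signal), 2 filters, the SAM statistic, p without adjustment, only 6 arrays, the replicate number or slide as a block, folds as bounds, and each array left out. The fit was checked on simulated data. The files give no counts, so the number of arrays and the signal over background limit the precision. Probe sequences were not used here. Python 3.11.15 with pandas 2.3.3 and numpy 2.4.6 made the tables.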

Additional observations from a re-analysis of the deposited data

How the results depend on the processing

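Of the counts of changed, higher and lower probes (23147, 11296 and 11851), spike-in scaling moved those of higher and lower probes to 22190 and 3852, and a filter on all 6 arrays moved that of higher probes to 4893 of 34886 probes tested, since probes dim in 1 stage are left out by its construction. The cause of the spike-in difference was not tested. Under the other alternatives each count stayed within 1.5 times, from 18383 (normexp) to 26504 (no filter) changed probes, and with each array left out from 22716 to 23901. The replicate block gave 23084 changed probes and altered no call among the 285 chosen probes, and same-numbered pools did not deviate together (r of -0.10, -0.03 and 0.11 across probes), so the numbers were not taken as pairs.

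Among the chosen probes called under either of both scalings, 2 changed sign with spike-in scaling, CUST_39791 to 1.21 and CUST_8495 of the basement membrane list to 0.06. Another 7, called under neither, also changed sign, Nacrein, N151, Prisilkin-39, Prismalin-14, PFMG1/7, a shell matrix protein and a calmodulin-like protein, and 5 uncalled probes did so with the slide as a block. A further 35 lost and 4 gained a call there, beside 29 lost with the slide as a block, 23 with normexp, 19 with the SAM statistic, 12 with folds as bounds, 7 with the authors' values and 6 with the 75th-percentile shift. Without 1 array at most 7 lost it. The glutathione S-transferase pi probe CUST_53080 (1.28) was at 0.94 without umbonal pool 3. Taken without bounds, the change of CUST_26508 went from 11.46 to 12.27 without trochophore pool 1. That of CUST_17620 went from 4.54 to 3.95 without trochophore pool 3. Both probes were well above background on no trochophore array, so these values rest on dim signals. The share of rises and falls with a D-shaped mean between both stages kept within 1.5 times under both scalings tried. Dim signals limit most the probes below background in trochophore larvae, for which only bounds are given.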

Other observations

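Probes listed for complement and coagulation cascades, secreted and membrane proteins of which many act in defence, were 21 higher and 6 lower in umbonal larvae of 36 tested (median 1.45, with dim probes at their bound 0.46). As for the other lists, these probes had changed between consecutive stages of the same arrays. CUST_12133 did not clear the background in any trochophore pool, read 6.13, 6.41 and 6.55 in D-shaped and 13.13, 12.7 and 13.19 in umbonal pools and was at least 101-fold higher (limma adjusted p = 1e-11). CUST_22212 of the same list was at the floor in trochophore pools (3.31, 2.98 and 2.94) and in D-shaped pools (3.03, 2.96 and 3.05) and read 9.17, 9.15 and 9.01 in umbonal pools (at least 6.78-fold, adjusted p = 3.4e-10). CUST_51592 went from 9.49, 9.28 and 9.55 to 6.01, 5.92 and 5.84 (11.4-fold lower, adjusted p = 1.9e-07) after a D-shaped level of 10.23, 10.6 and 10.02.

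Lists of proteins outside the cell also had more higher than lower calls. Extracellular space had 7 higher and 0 lower of 14, and extracellular matrix 7 and 2 of 20, with medians of 1.67 and 0.6 that were 0.53 and 0.03 with bounds. In each of these lists 7 probes were well above background on all 3 umbonal and no trochophore array. Such probes were tested only through the umbonal stage and could hardly be called lower. CUST_43294, of the extracellular space, read 9.67, 10.13 and 9.18 in D-shaped and 10.83, 10.2 and 11.15 in umbonal pools and was at least 20.8-fold higher (adjusted p = 5.9e-10). ABC transporters, pumps driven by ATP, had 15 higher and 3 lower of 27, with a median of 1.32 that was 0.12 with bounds. CUST_19978 of that list went from 7.16, 7.49 and 7.05 over 11.66, 11.75 and 11.45 to 11.39, 11.55 and 11.57 (19.3-fold, adjusted p = 3.5e-11). For glycine, serine and threonine metabolism 17 of 30 were higher and 7 lower, and CUST_11089 in it went from 6.88, 7.25 and 7.13 over 9.6, 9.49 and 9.61 to 12.67, 12.62 and 12.64 (47.2-fold, adjusted p = 1.1e-11).

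In some probes 1 trochophore pool stood apart from the other 2. CUST_15702, in a wider list of tyrosine metabolism than the 26 probes above, read 6.28, 6.49 and 9.95 in the trochophore pools and 13.54, 13.18 and 13.61 in the umbonal pools (with 1 of the 3 trochophore arrays well above background), and its change of 5.87 was 7.04 without the third pool. CUST_15060, of the complement list, read 5.25, 4.36 and 8.22 and 14.75, 14.18 and 14.6 (with 1 of the 3 trochophore arrays well above background), with a change of 8.57 that was 9.67 without that pool and 7.74 without the second one.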
